A study of Mus musculus with 16 samples.

Results

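The matrix metalloproteinases (MMPs), the ADAMTS proteases, the ADAMTS-like proteins and the tissue inhibitors of metalloproteinases (TIMPs) were read from arrays of developing mouse molars. The genes were chosen by symbol, Mmp, Timp or Adamts followed by a number, or Adamtsl, and the enamel protease gene *Mmp20* was left out. Of the 19938 genes with a probe set of their own, 48 met this rule, 21 MMP, 4 TIMP, 18 ADAMTS and 5 ADAMTS-like genes. *Mmp15* and *Adamts2* had no probe set that pairs with them alone and were not analysed here. Each gene was read from 1 probe set, the one with the highest mean signal of the 73 that pair with these genes. Of the 48 genes, 44 had a signal above 5, the study's minimum, in at least 1 pool, and were tested.

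The arrays measured mandibular molar germs of C57Bl6 mouse embryos at E14.5, the cap stage of tooth development. There were 8 WT pools and 8 *Rsk2-/Y* pools of 4 tooth germs, from 2 embryos a pool by the methods, and whether pools shared litters is not stated. *Rsk2-/Y* males lack the X-linked kinase RSK2 through an excision of exon 2 of its gene *Rps6ka3*, and the controls were WT littermate males. Pool names begin with ABH or AZN, here called series, and each series held 4 pools of either genotype. No source used here says what the names stand for.

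Values are log2 signals, and a difference between genotypes is *Rsk2-/Y* minus WT on that scale. Calls were made with limma across all genes, where a gene had to reach 1.2-fold in either direction with its false discovery rate below 0.1. Array medians ran from 6.74 to 6.94, and the number of arrays limits the precision. *Rps6ka3* had a signal of 9.61 to 10.22 in WT and of 9.74 to 10.4 in *Rsk2-/Y*, which hardly checks the labels, since its probes are spread over the whole gene. The 8 markers of dental epithelium and the 8 of dental mesenchyme with a probe set of their own were above 5 in every pool. So were 16107 of all 19938 genes, and passing 5 by itself thus hardly tells which cells were present.

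MMPs are zinc-dependent proteases that cut collagens and other proteins of the extracellular matrix, and most are made as inactive precursors. TIMPs bind to their active sites and block them. ADAMTS proteases are secreted, and different members cut proteoglycans such as versican and aggrecan, trim procollagens or act on blood and microfibril proteins, while the ADAMTS-like proteins have no protease domain. At the cap stage the dental epithelium folds around the mesenchyme, and basement membrane and mesenchymal matrix are remodelled while the surrounding jaw begins to form bone.

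Signals of different probe sets cannot be ranked against each other, so each gene was read against the minimum of 5 and against itself across pools. Of the 48 genes, 42 were above 5 in all 16 pools. *Mmp27* passed it in 12 pools and *Mmp3* in 3, while *Mmp1a*, *Mmp1b*, *Mmp8* and *Mmp12* did not pass it in any. These 6 genes and *Mmp7*, *Mmp10* and *Mmp13* lie next to each other in the mouse genome, interrupted among the MMPs by *Mmp20* only. Of these 9 neighbours, 3 were above 5 in every pool and 8 stayed below 6 in every pool, the exception being *Mmp13*. Of the 39 other members, all were above 5 in every pool and 3 stayed below 6 in every pool. Among all 19938 genes, 16107 were above 5 in every pool and 5107 stayed below 6 in every pool.

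**Figure D1:**
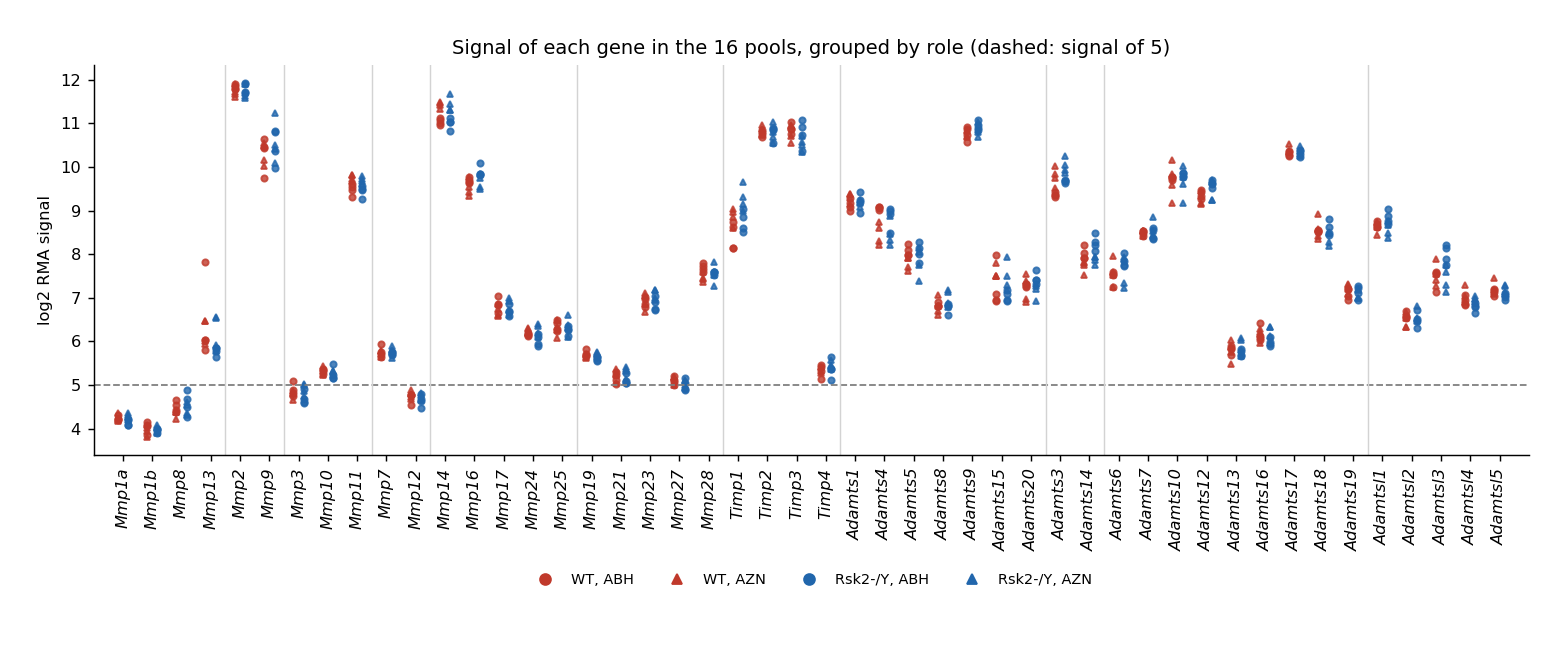
Signal (log2 RMA signal, vertical axis) of each of the 48 genes in each of the 16 pools, with the genes grouped by role along the horizontal axis, with circles (ABH) and triangles (AZN) coloured red in WT and blue in *Rsk2-/Y*. The collagenases *Mmp1a*, *Mmp1b* and *Mmp8* and the elastase *Mmp12* lie below the dashed line at 5 in every pool, and the WT pool ABH_25A stands above the others for *Mmp13*.

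Most of the neighbours also share a promoter sequence. Promoters of several inducible MMP genes are known to hold a binding site of AP-1, a factor made of FOS and JUN proteins, whose core is TGAGTCA, or TGACTCA on the other strand. The 250 bases before the gene start, taken from RefSeq's annotation of GRCm38.p6, were searched for both spellings. Windows were at hand for 33 of the 48 genes, 36 windows in all. The core was found in 7 of these 36 windows (19.4%), against 1466 of 32851 windows of all genes (4.46%). All 7 belonged to the neighbours, where 7 of 11 windows and 7 of the 9 genes held it, *Mmp8* and *Mmp27* being without. Counted by gene, 1395 of all 27025 genes with a window held it. None was among the 25 windows of the other members (0 of 25). The stretches below run 5′ to 3′ on the gene's strand, with the core in capitals, and are shown because the same 7 letters, on one strand or the other, stand near the start of these genes. *Mmp1a* and *Mmp1b*, which are close copies of each other, are alike in most of the remaining bases too, and their probe sets may share signal.
Mmp13, chr9:7272452-7272511, plus strand: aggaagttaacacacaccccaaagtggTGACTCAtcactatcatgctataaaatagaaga
Mmp12, chr9:7347303-7347362, plus strand: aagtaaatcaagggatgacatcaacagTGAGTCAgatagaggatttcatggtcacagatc
Mmp1b, chr9:7388087-7388146, minus strand: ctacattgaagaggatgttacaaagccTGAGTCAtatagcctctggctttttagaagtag
Mmp3, chr9:7445749-7445808, plus strand: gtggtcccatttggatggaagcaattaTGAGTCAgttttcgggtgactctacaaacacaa
Mmp1a, chr9:7464041-7464100, plus strand: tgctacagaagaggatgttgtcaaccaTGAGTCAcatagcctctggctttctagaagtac
Mmp10, chr9:7502252-7502311, plus strand: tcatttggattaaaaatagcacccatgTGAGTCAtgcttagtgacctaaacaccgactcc
Mmp7, chr9:7692000-7692059, plus strand: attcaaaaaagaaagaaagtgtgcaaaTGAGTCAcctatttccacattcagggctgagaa
The first base of the core lay from 35 bases before the start in *Mmp13* to 93 bases in *Mmp1b*. A match describes the letters of these windows and says nothing of whether the factor bound there in these germs.

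No member was called between genotypes (0 of 44), and neither was any of the 17215 genes tested (0.0%). The paper, with other software and the same thresholds, reports genes differentially expressed between these genotypes. The count of 0 is thus that of the present fits and not the paper's, and the reason was not tested. At an unadjusted p under 0.05, 3 members were higher in *Rsk2-/Y* (background 0.982% of genes) and 0 were lower (background 2.97%). The 3 were *Timp1*, *Adamts3* and *Adamts12*. The methods' t-test also called 0 members, while its unadjusted p was under 0.05 for 2 members upwards (background 0.958%) and 1 downwards (background 3.17%). With the series as a block, limma called 0 members as well (background 0.00581%), and 5 members upwards and 0 downwards had an unadjusted p under 0.05 (background 1.86% and 5.06%). These 5 were *Timp1*, *Adamts3*, *Adamts12*, *Adamts14* and *Mmp16*, with limma adjusted p-values of 0.235 to 0.626 in that fit. A fold change of at least 1.2 was reached by *Timp1* and *Adamts3* upwards (background 0.86%) and by *Mmp13* downwards (background 0.714%). The difference was above 0 for 20 of the 44 members (background 39.7%), and its median was -0.016 over the members and -0.0163 over all genes.

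**Figure D2:**
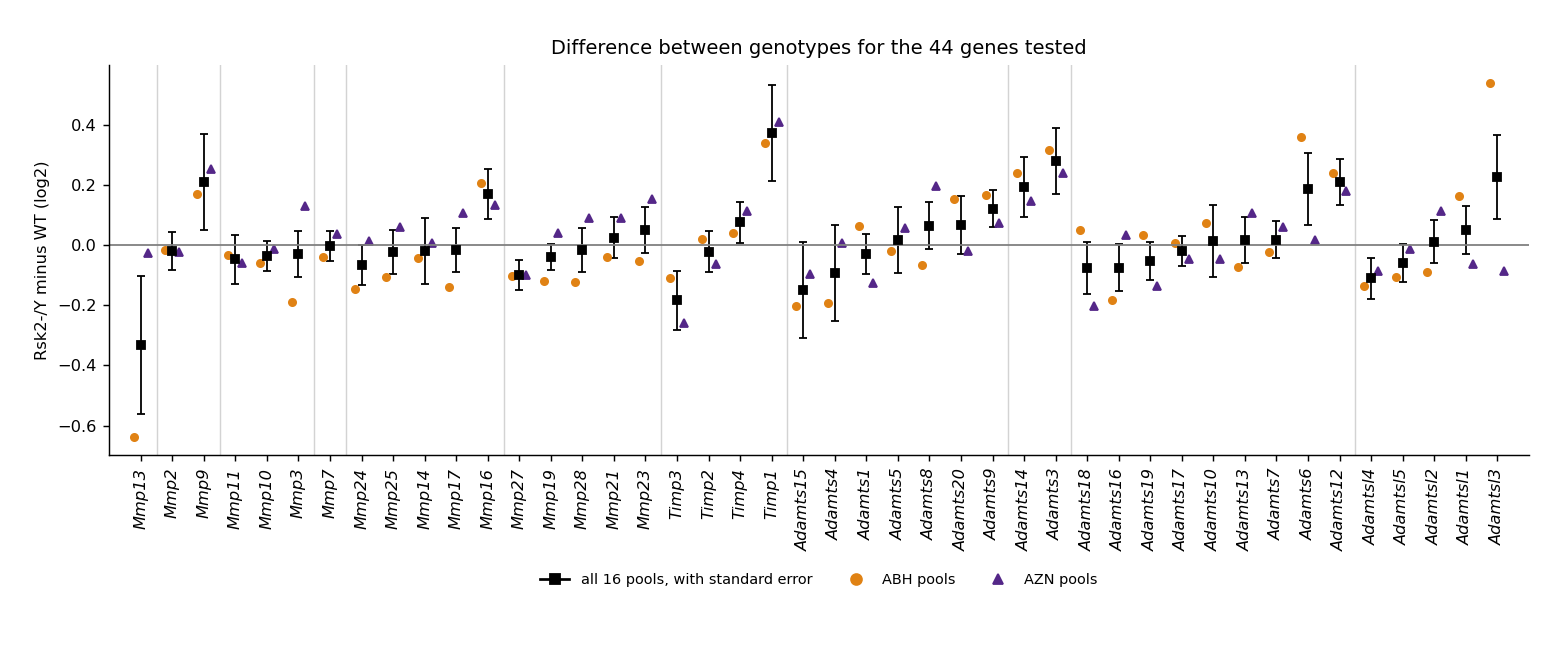
Difference between genotypes (*Rsk2-/Y* minus WT, log2, vertical axis) for the 44 genes tested, ordered within each role along the horizontal axis, over all 16 pools (squares with standard error) and within ABH (circles) and AZN (triangles). *Timp1* has the highest difference at 0.373 and *Mmp13* the lowest at -0.333, and the circle and triangle of *Adamtsl3*, at 0.539 and -0.086, lie on opposite sides of 0.

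Among the inhibitors, *Timp1*, a secreted inhibitor of most MMPs, had the largest difference of the 44 genes. In ABH its signal was 8.73, 8.63, 8.14 and 8.15 in the WT pools and 8.51, 9.04, 8.59 and 8.86 in the *Rsk2-/Y* pools. In AZN it was 8.85, 8.97, 8.61 and 9.03 in WT and 9.31, 9.15, 9.66 and 8.98 in *Rsk2-/Y*. Every *Rsk2-/Y* pool was above the WT mean of its own series, but the genotypes overlapped in both series. It averaged 8.64 ± 0.34 over the WT pools and 9.01 ± 0.37 over the *Rsk2-/Y* pools (SD, n = 8 each), a difference of 0.373 or 1.3-fold (standard error 0.16, limma adjusted p = 1.0). It was 0.339 in ABH and 0.408 in AZN, and with the series as a block the limma adjusted p was 0.436. In these bulk germs, a change in the number of cells that make a gene and a change in its RNA per cell cannot be told apart.

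*Timp1* lies inside the neuronal gene *Syn1* in the RefSeq annotation, and *Syn1* differed by -0.18, the other way. The highest *Timp1* signal, 9.66, came from AZN_MolairesMutant3, the pool that also had the highest osteoblast and skeletal muscle marker means. Without that pool the *Timp1* difference was 0.281. The osteoblast markers were above 0 between genotypes for 7 of 7 genes, with a median of 0.27, and their mean ran from 9.44 to 10.1 in the WT pools and from 9.59 to 10.8 in the *Rsk2-/Y* pools. The skeletal muscle markers were above 0 for 10 of 11, with a median of 0.7, and their mean ran from 7.51 to 9.11 in WT and from 7.45 to 9.98 in *Rsk2-/Y*. The dental epithelium markers were below 0 for 8 of 8, with a median of -0.22, and their mean ran from 10.1 to 10.9 in WT and from 9.93 to 10.6 in *Rsk2-/Y*. Every gene of these 3 lists was above 5 in all pools and none was called, and their part in the differences of the members was not tested. AZN_MolairesMutant3 and ABH_14A had the highest skeletal muscle means of all pools, 9.98 and 9.64. Without both, 0 members were called between genotypes, *Timp1* was at 0.349, *Adamts3* at 0.273 and *Mmp13* at -0.387.

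*Timp3*, an inhibitor held in the matrix that also blocks several ADAMTS proteases, had a difference of -0.184 (standard error 0.099, limma adjusted p = 1.0). It ran from 10.54 to 11.04 in WT and from 10.34 to 11.07 in *Rsk2-/Y*, with a difference of -0.111 in ABH and -0.258 in AZN. In AZN all 4 *Rsk2-/Y* pools, at 10.7, 10.34, 10.58 and 10.51, were below the WT mean of 10.8. *Timp3* lies inside *Syn3* in the RefSeq annotation, and *Syn3* differed by -0.19, the same way as *Timp3*. *Timp4* lies inside *Syn2*, which differed by -0.01. Whether signal of these host genes takes part in that of the inhibitors was not tested. *Timp2*, which takes part with MMP14 in the activation of MMP2, was at 10.69 to 10.96 in WT and at 10.54 to 11.04 in *Rsk2-/Y*, a difference of -0.022 whose sign turned in ABH. *Timp4* had a difference of 0.076, at signals close to the minimum, from 5.11 to 5.65. The 4 inhibitors thus lay on both sides of 0, with a median of 0.027.

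*Adamts3*, a protease that trims procollagen and takes part in the activation of VEGF-C, separated the genotypes in ABH. There it was at 9.31, 9.35, 9.42 and 9.35 in WT and at 9.68, 9.68, 9.64 and 9.69 in *Rsk2-/Y*, so that no pool of one genotype reached the other. In AZN it was at 9.74, 10.03, 9.52 and 9.84 in WT and at 10.25, 9.86, 10.05 and 9.93 in *Rsk2-/Y*, with overlap. Over all pools the difference was 0.278 or 1.21-fold (standard error 0.11, limma adjusted p = 1.0), and all 8 *Rsk2-/Y* pools were above the WT mean of 9.57. With the series as a block the standard error was 0.065 and the limma adjusted p was 0.235, so the gene was not called there either. *Adamts14*, the other procollagen protease of the list, had a difference of 0.192, with 0.24 in ABH and 0.145 in AZN, and an adjusted p of 0.551 with the series as a block in limma.

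The array carries 16 probe sets for *Adamts3*, and they gave a further reading of the same RNA. All 16 had a difference above 0 over all pools, from 0.127 to 0.366 with a median of 0.23, and all 16 were above 0 within ABH and within AZN. An unadjusted p under 0.05 was reached by 11 of them, and 0 were called. The probe sets share the same pools, so they are not replicates of the comparison. Among the members with several probe sets, all 6 of *Adamts9* were also above 0, from 0.057 to 0.137, while 1 of the 5 of *Adamts17* was.

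**Figure D3:**
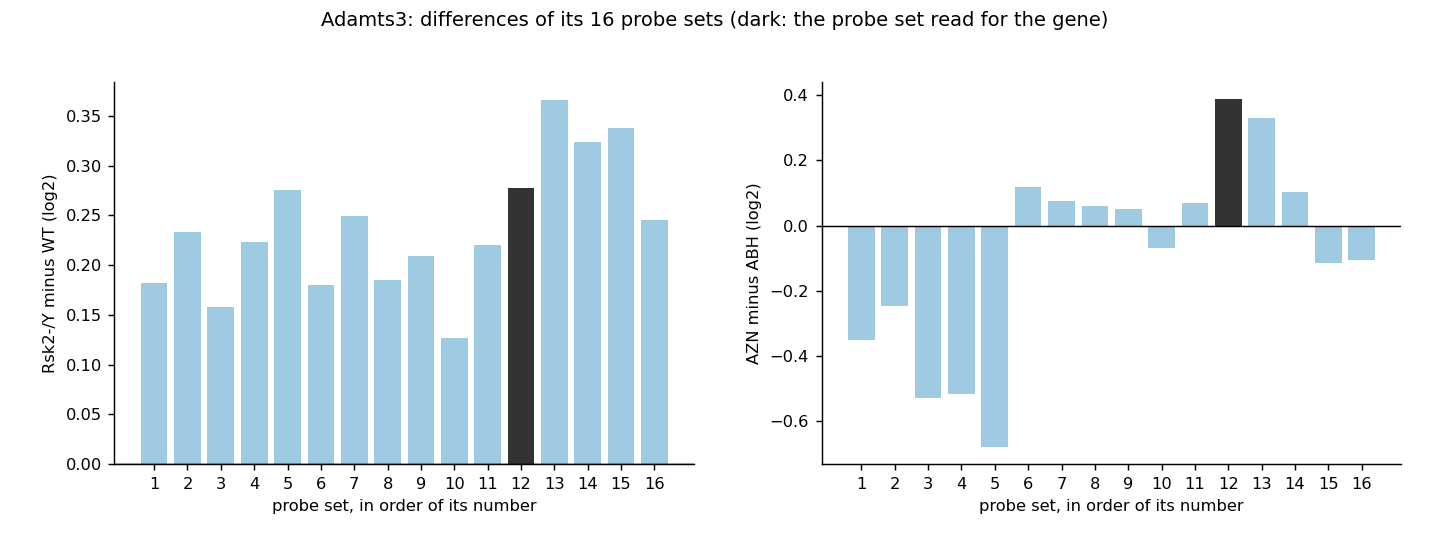
Differences (log2, vertical axes) of the 16 probe sets of *Adamts3*, in order of their numbers along the horizontal axes, with the probe set read for the gene in dark. Between genotypes (left) every bar is above 0, from 0.127 to 0.366, whereas between series (right) 8 bars are above 0 and 8 below, from -0.68 to 0.388.

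The other ADAMTS proteases gave 5 differences above 0 and 4 below among 9 genes, with a median of 0.014. *Adamts12*, which cuts the cartilage matrix protein COMP, was the highest at 0.209 (standard error 0.077, limma adjusted p = 1.0). With the series as a block its limma adjusted p was 0.541. In ABH it was at 9.34, 9.43, 9.26 and 9.47 in WT and at 9.51, 9.6, 9.64 and 9.7 in *Rsk2-/Y*, without overlap. In AZN it was at 9.17, 9.44, 9.16 and 9.34 in WT and at 9.65, 9.23, 9.69 and 9.25 in *Rsk2-/Y*, where 2 pools were well above the WT pools and 2 among them. *Adamts6*, a protease linked to fibrillin microfibrils, was at 7.24 to 7.6 in WT and at 7.72 to 8.02 in *Rsk2-/Y* within ABH, a difference of 0.359, against 0.016 in AZN. *Adamts18* had differences of 0.05 in ABH and -0.202 in AZN. The remaining 6, with *Adamts13*, which cuts von Willebrand factor, among them, ran from -0.075 to 0.018 over all pools.

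The proteases that cut versican or aggrecan numbered 7, with 4 differences above 0 and 3 below and a median of 0.017. *Adamts9* had the highest, 0.12, with all 4 *Rsk2-/Y* pools above the WT mean in ABH and 3 of 4 in AZN. *Adamts15* had the lowest, -0.15, from 6.92 to 7.98 in WT and from 6.93 to 7.93 in *Rsk2-/Y*. *Adamts1* was at 9.0 to 9.38 in WT and at 8.95 to 9.43 in *Rsk2-/Y*, a difference of -0.03 that was 0.064 in ABH and -0.125 in AZN. The genotypes overlapped for these 3 genes. *Adamts4*, *Adamts5*, *Adamts8* and *Adamts20* ran from -0.093 to 0.066.

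Of the ADAMTS-like genes, 3 of 5 had a difference above 0, with a median of 0.011. *Adamtsl3* was the only one past 0.2, at 0.226 (standard error 0.14, limma adjusted p = 1.0). In ABH it was at 7.56, 7.54, 7.14 and 7.59 in WT and at 8.2, 7.76, 7.88 and 8.13 in *Rsk2-/Y*, a difference of 0.539 without overlap. In AZN it was at 7.28, 7.88, 7.55 and 7.41 in WT and at 7.59, 7.12, 7.3 and 7.76 in *Rsk2-/Y*, a difference of -0.086. The test of the difference between series is given with the interaction. *Adamtsl4*, whose protein binds fibrillin microfibrils, was at -0.111, with 7 of 8 *Rsk2-/Y* pools below the WT mean. *Adamtsl5* was at -0.06, *Adamtsl2* at 0.011 and *Adamtsl1* at 0.05.

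**Figure D4:**
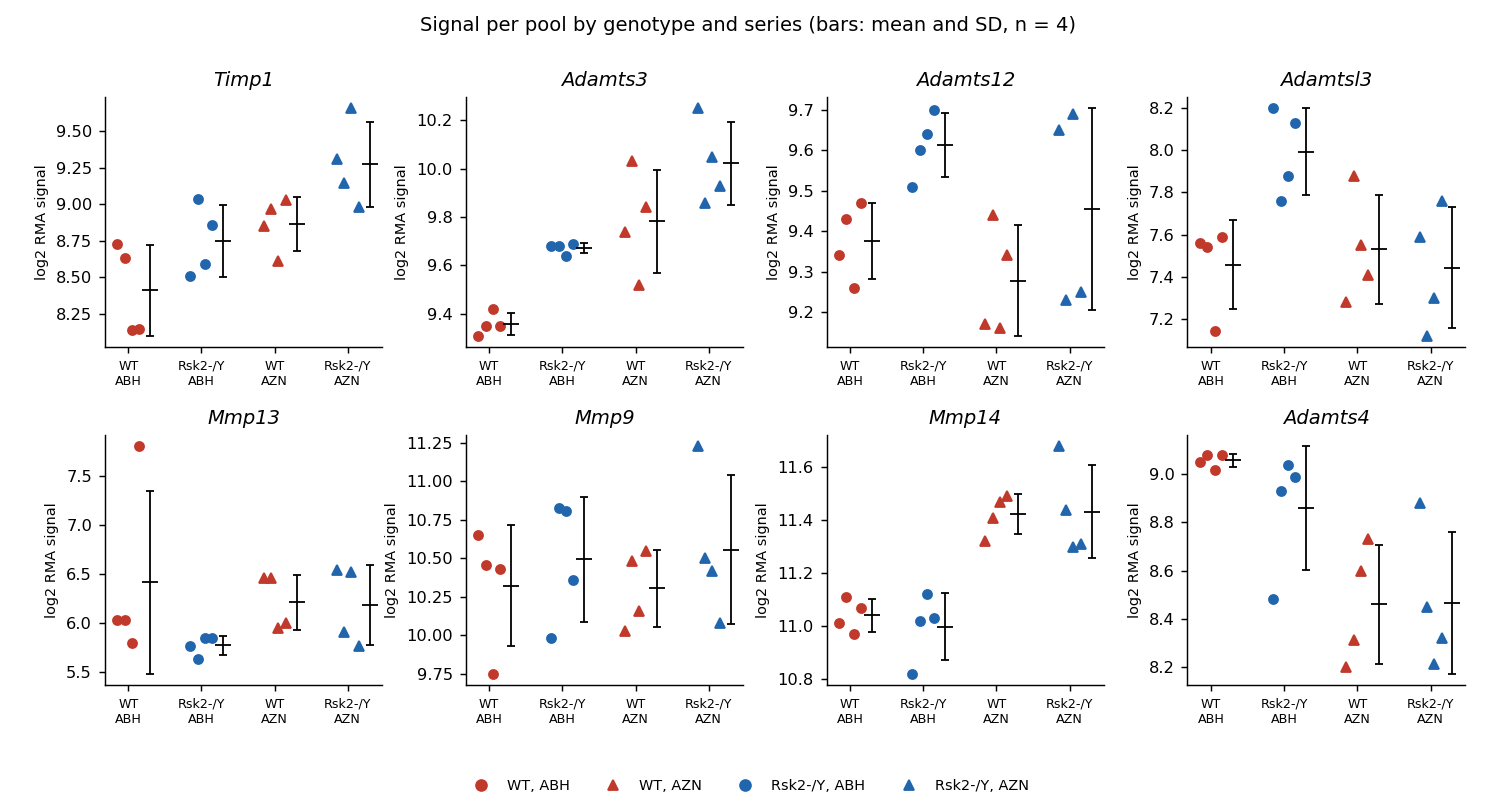
Signal (log2 RMA signal, vertical axes) of 8 genes in each pool by genotype and series, with the mean and SD of the 4 pools of each group beside the points. *Adamts3*, *Adamts12* and *Adamtsl3* separate the genotypes in ABH and overlap in AZN, 1 WT pool of ABH stands at 7.81 for *Mmp13*, and *Mmp14* separates the series.

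*Mmp13*, a collagenase of bone and hypertrophic cartilage, had the lowest difference of the 44 genes, -0.333 (standard error 0.23, limma adjusted p = 1.0), and 1 pool made most of it. In ABH the WT pools were at 6.04, 6.03, 5.8 and 7.81 and the *Rsk2-/Y* pools at 5.77, 5.64, 5.85 and 5.85. In AZN they were at 6.46, 6.46, 5.95 and 6.0 in WT and at 6.55, 5.91, 6.53 and 5.77 in *Rsk2-/Y*. Without ABH_25A, the WT pool at 7.81, the difference was -0.12, and in AZN it was -0.027. ABH_25A also had the highest signals of keratins of the stratified oral epithelium, *Krt13* at 9.82 against 6.94 to 8.28 in the other pools and *Krt4* at 8.17 against 5.71 to 6.91. Both keratins were picked with their values in view, and their part in the *Mmp13* signal was not tested. The other collagenases, *Mmp1a*, *Mmp1b* and *Mmp8*, did not pass the signal minimum.

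The gelatinases cut denatured collagen and type IV collagen of basement membranes. *Mmp2* ran from 11.61 to 11.89 in WT and from 11.57 to 11.93 in *Rsk2-/Y*, with a difference of -0.02 and an SD within genotype and series of 0.117. *Mmp9*, which osteoclasts make in large amounts, varied more between pools. In ABH it was at 10.65, 10.46, 9.75 and 10.43 in WT and at 9.98, 10.83, 10.81 and 10.36 in *Rsk2-/Y*, and in AZN at 10.03, 10.48, 10.16 and 10.55 in WT and at 11.23, 10.5, 10.42 and 10.08 in *Rsk2-/Y*. The genotypes overlapped in both series, and the difference was 0.21 (standard error 0.16, limma adjusted p = 1.0).

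The SD within genotype and series was 0.393 for *Mmp9*, 0.53 for *Mmp13*, 0.315 for *Adamts15* and 0.273 for *Adamts10*, against a median of 0.142 over the members. The *Adamts10* spread lay in AZN, with SDs of 0.41 in WT and 0.36 in *Rsk2-/Y*, against 0.02 and 0.05 in ABH. Its lowest signals, 9.18 in both, came from AZN_MolairesWT and AZN_MolairesMutant. The highest *Mmp9* signal, 11.23, came from AZN_MolairesMutant, which also had the highest mean of the 8 osteoclast markers, 8.11, against 7.1 to 7.55 in the other pools. That pool also had the highest means of the macrophage, neutrophil and endothelium markers. The 8 osteoclast markers were above 5 in every pool, and between genotypes 8 of 8 were above 0 with a median of 0.15 and 0 were called.

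Within ABH, *Mmp9* correlated with the osteoclast mean over 8 pools with r = 0.8 (exact permutation p = 0.0185, adjusted p = 0.111 over 12 relations) and rho = 0.76 (exact permutation p = 0.0368, adjusted p = 0.441). Without the 2 pools farthest from the median of that mean, r was 0.78. Within AZN, r was 0.86 (exact permutation p = 0.0183, adjusted p = 0.111) and rho was 0.52 (exact permutation p = 0.197, adjusted p = 0.654), and r without the 2 farthest pools was 0.79. No relation passed after adjustment. The other 10 relations, of *Mmp13* and *Mmp14* with osteoblast, *Mmp2* with dental mesenchyme, *Timp3* with cartilage and *Adamts1* with endothelium markers, had adjusted p-values of 0.536 or more by the exact permutation test.

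**Figure D5:**
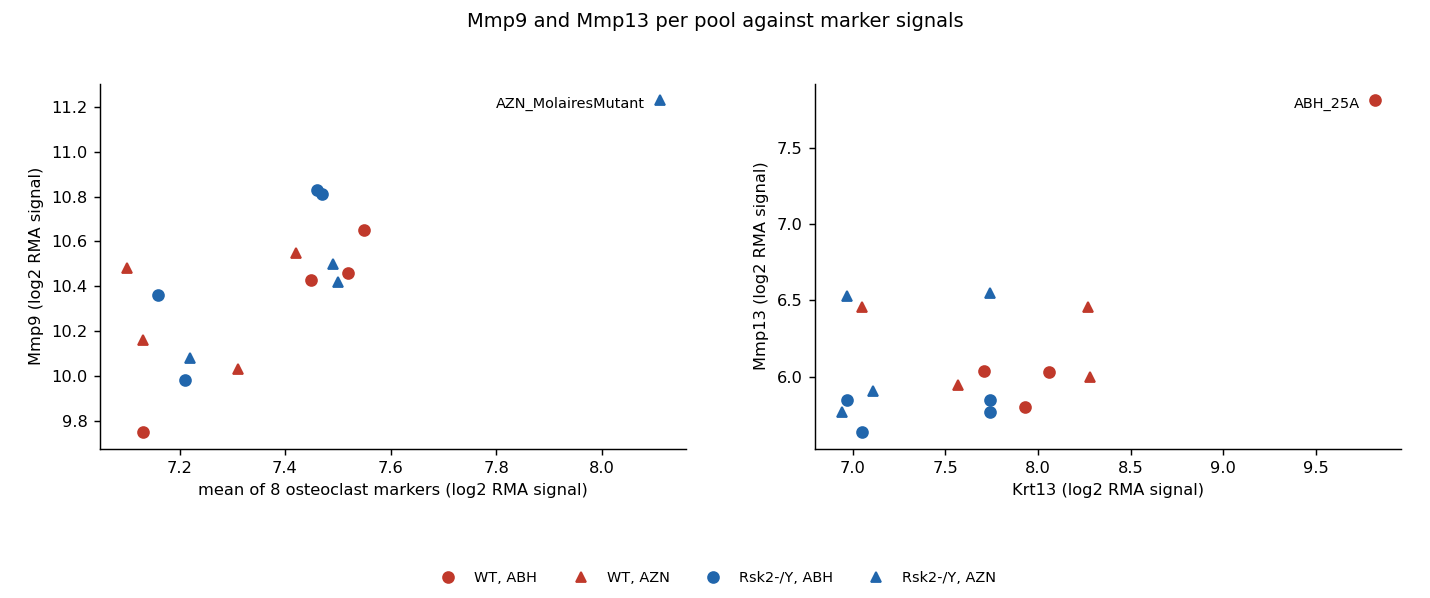
Left, *Mmp9* (log2 RMA signal, vertical axis) against the mean of the 8 osteoclast markers in each of the 16 pools, and right, *Mmp13* against the keratin *Krt13*, with colours for genotype and shapes for series. AZN_MolairesMutant is highest on both axes of the left panel (8.11 and 11.23), and ABH_25A on both axes of the right panel (9.82 and 7.81).

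The membrane-type MMPs, which act at the cell surface, gave 1 difference above 0 and 4 below, with a median of -0.019. The one above was *Mmp16*, at 0.17 (standard error 0.083, limma adjusted p = 1.0). With the series as a block its limma adjusted p was 0.626. In ABH it was at 9.63, 9.7, 9.77 and 9.65 in WT and at 9.83, 9.84, 9.82 and 10.09 in *Rsk2-/Y*, without overlap, and in AZN the difference was 0.133 with overlap. *Mmp14*, the main cell-surface activator of MMP2, was at 10.97 to 11.49 in WT and at 10.82 to 11.68 in *Rsk2-/Y*, with a difference of -0.019. *Mmp17*, *Mmp24* and *Mmp25* ran from -0.066 to -0.016. The stromelysins *Mmp3*, *Mmp10* and *Mmp11* ran from -0.048 to -0.03 and the matrilysin *Mmp7* was at -0.002. The 5 other MMPs, *Mmp19*, *Mmp21*, *Mmp23*, *Mmp27* and *Mmp28*, ran from -0.101 to 0.05.

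Within ABH, 5 members had every *Rsk2-/Y* pool above every WT pool (background 2.25%), namely *Adamts3*, *Adamts6*, *Adamts12*, *Adamtsl3* and *Mmp16*. *Mmp19* and *Mmp28* had every *Rsk2-/Y* pool below (background 5.84%), with differences of -0.119 and -0.122. The *Mmp19* signals were low, from 5.55 to 5.83 over all pools. Within AZN the counts were 0 above (background 0.726%) and 0 below (background 0.807%), and over all 16 pools they were 0 and 0 (background 0.0% and 0.0174%). In limma, 0 members were called within ABH alone (background 0.0232%) and 0 within AZN alone (background 0.0%).

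More genes were called between series than between genotypes. With the genotype as a covariate, 7 of 44 members (15.9%) were called between AZN and ABH, and so were 2768 of 17215 genes (16.1%). Of the 7 members, 5 were higher in AZN (background 5.8%) and 2 were lower (background 10.3%). These differences are between sets of pools whose meaning is not stated, so what separated them cannot be told apart from the sources used here. Some markers of every cell type listed were called between series too, to be read beside the same backgrounds of 5.8% higher and 10.3% lower. Skeletal muscle markers were called higher in AZN for 5 of 11, with a list mean of 7.45 to 9.64 in the ABH pools and 8.04 to 9.98 in the AZN pools, and osteoblast markers for 2 of 7 (9.44 to 9.94 and 9.72 to 10.8). Erythroid markers were called higher for 2 of 3 (8.54 to 10.2 and 9.43 to 10.5) and neutrophil markers for 2 of 6 (5.75 to 6.43 and 6.0 to 6.82). Dental epithelium markers were called lower in AZN for 4 of 8 and higher for 1 (10.4 to 10.9 and 9.93 to 10.8), and dental mesenchyme markers lower for 3 of 8 (10.5 to 10.8 and 10.1 to 10.7). All of these markers were above 5 in every pool. Osteoclast markers were called higher in AZN for 2 of 8 and lower for 1, and macrophage markers higher for 1 of 8. Endothelium markers were called lower for 2 of 8 and cartilage markers for 1 of 9. The part of any of these markers in the series differences of the members was not tested.

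*Mmp14* and *Mmp11* had every AZN pool above every ABH pool (background 3.44%), and 0 members had every AZN pool below (background 5.37%). *Mmp14* ran from 10.82 to 11.12 in ABH and from 11.3 to 11.68 in AZN, a rise of 0.41 or 1.33-fold (standard error 0.058, limma adjusted p = 4.78e-05), with 0.384 in the WT pools and 0.436 in the *Rsk2-/Y* pools. *Mmp11*, a stromelysin that furin activates inside the cell, ran from 9.26 to 9.6 in ABH and from 9.6 to 9.82 in AZN. Its rise of 0.267 was just past the fold minimum and its limma adjusted p was 0.000728. It was under the fold minimum without ABH_13A, AZN_MolairesWT3, AZN_MolairesWT, AZN_MolairesMutant or ABH_14A, at 0.239 to 0.258.

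*Timp1* was also higher in AZN, by 0.487 or 1.40-fold (standard error 0.11, limma adjusted p = 0.00273), so that the inhibitor with the largest genotype difference had a larger one between series. *Syn1*, inside which it lies, was at -0.89, the other way. *Adamts15* was higher by 0.391 (limma adjusted p = 0.0305). It ran from 6.92 to 7.98 in ABH and from 7.18 to 7.93 in AZN, and the 7.98 came from ABH_13A, without which the difference was 0.509. *Adamts4*, an aggrecanase, was lower in AZN by 0.498 on the log2 scale (a difference of -0.498, standard error 0.1, limma adjusted p = 0.00121), from 8.48 to 9.08 in ABH and from 8.2 to 8.88 in AZN. *Adamts14* was lower as well (-0.338, limma adjusted p = 0.000819).

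*Adamts3* was called higher in AZN at 0.388 (limma adjusted p = 0.000211), but this sign depended on the probe set. Of its 16 probe sets, 8 were above 0 and 8 below, 2 were called higher and 4 called lower, and the mean over all 16 had a difference of -0.089. The genotype difference of this gene, which no probe set reversed, was not called on any of them. Of the other members with several probe sets, *Adamts17* had 1 of 5 called lower in AZN and *Adamts9* 2 of 6 called higher. The probe sets read for these genes were not called, and neither was any of *Adamtsl1*. *Adamts5*, a further aggrecanase, had a difference of -0.257 with a limma adjusted p of 0.0458, just under the fold minimum. It passed that minimum and was called lower in AZN in 8 of the 16 fits that left out 1 pool, those without ABH_11A, ABH_12A, AZN_MolairesWT2, AZN_MolairesWT, AZN_MolairesMutant, AZN_MolairesMutant3, ABH_14A or ABH_16A, at -0.307 to -0.267.

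No member was called for a genotype difference that differed between series (0 of 44, background 0.0%). At an unadjusted p under 0.05 in limma, 1 was higher in AZN (background 3.97%) and 1 lower (background 1.76%). The one that was lower was *Adamtsl3*, at -0.625 (standard error 0.22, limma adjusted p = 0.728), and the one that was higher was *Mmp3* at 0.318, whose signals of 4.58 to 5.09 lie around the minimum. *Mmp13* had the largest value upwards, 0.612 (limma adjusted p = 0.835), which rests on ABH_25A and was 0.149 without it. *Adamts8* (0.265) and *Mmp17* (0.245) followed upwards, and *Adamts6* (-0.343), *Adamts18* (-0.252) and *Adamtsl1* (-0.226) downwards.

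The partners of these proteases were read in the same pools. Of 18 activators, inhibitors and co-factors, 16 could be tested, and between genotypes 10 were above 0 (background 39.7%) and 0 were called (background 0.0%). *Furin*, which removes the inhibitory part of several MMPs, was at -0.031, and *Reck*, a membrane-anchored inhibitor of MMPs, at 0.043. *Pcolce2*, an enhancer of procollagen processing, had the largest difference, 0.327 (standard error 0.22, limma adjusted p = 1.0). Between series 2 of the 16 were called higher in AZN (background 5.8%), *Pcsk6*, a convertase of the furin family (0.382), and *Pcolce2* (0.508). Called lower were 2 (background 10.3%), *Spock1* (-0.874) and *Tll1* (-0.266).

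Of 14 matrix substrates listed, 13 were tested, and 10 were above 0 between genotypes (background 39.7%) with a median of 0.013 and 0 called. *Tnc*, which encodes tenascin C, was at 0.153, *Fn1*, which encodes fibronectin, at 0.117, *Vcan*, the versican that several ADAMTS members cut, at 0.013, and *Acan*, the aggrecan that aggrecanases cut, at -0.145. Between series 1 of the 13 was called higher in AZN (background 5.8%), *Ncan* (0.276). Called lower were 2 (background 10.3%), *Vcan* (-0.276) and *Lama1* (-0.284). *Vcan* was thus lower in AZN together with *Adamts4*, while *Adamts15* was higher.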

How the data were processed

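RNA of 16 pools of molar germs was measured on Affymetrix Mouse Gene 1.0 ST arrays. The authors deposited log2 signals per probe set, made by RMA in Affymetrix Expression Console 1.3.1.187, which corrects background, equalises arrays and summarises probes, per the submitters' processing notes. Nothing was normalized further. Of 35556 probe sets, 21789 pair with 1 symbol in the platform annotation. The 18834 of these with a signal above 5 in at least 1 pool were tested, and Benjamini-Hochberg adjustment ran over them. limma 3.58.1 (R 4.3.3, lmFit and eBayes, two-sided) compared genotypes without a covariate, series with genotype as a covariate, and their interaction. An equal-variance t-test was also run between genotypes. The paper names the Student t-test for comparing 2 groups in general and names no test for the arrays. Marker relations were tested by exact permutation within each series. No 2 samples were identical, and correlations between samples ran from 0.976 to 0.997. Named genes were the 4 largest changes each way in each comparison, the 4 with the largest spread, 8 chosen genes, and any called under any of 30 alternatives, and others were added where a role group or flag needed them. Members and lists were chosen with earlier results of these data known. Scripts were tested on simulated data. Promoter coordinates are those of GRCm38.p6, and the build behind the array files is not given in the sources used here.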

Additional observations from a re-analysis of the deposited data

Results flagged for a closer look

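The highest and the lowest pool of each genotype were compared with the nearest other pool for the 44 members, as a gap over the whole range of the 8 pools, with Dixon's critical value, at which chance flags about 1 group in 20. Of 88 groups, 6 stood out, all in WT. *Mmp13* was at 7.81 in ABH_25A, with the nearest WT pool at 6.46. *Adamts18* was at 8.93 in AZN_MolairesWT1, with the nearest at 8.57. *Adamtsl5* was at 7.45 in AZN_MolairesWT3, with the nearest at 7.19. *Adamts17* was at 10.53 in AZN_MolairesWT2, with the nearest at 10.37, and *Mmp7* was at 5.94 in ABH_11A, with the nearest at 5.78. *Adamtsl1* was low, at 8.44 in AZN_MolairesWT, with the nearest at 8.62.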

How the results depend on the processing

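No member was called between genotypes or for the interaction under any alternative run. With the replicate block, in which AZN numbers shared by both genotypes pair the pools, 0 members were called between genotypes. Deviations of same-numbered pools correlated at -0.03 and -0.01, so the numbers were not read as pairs, and the unnumbered AZN pools correlated at 0.68. The 7 of 44 members called between series became 11 at a false discovery rate under 0.05 with no fold minimum. Of all 17215 genes, 6300 were called there. When each pool was left out in turn, 6 to 9 members were called between series, against 2521 to 3004 of all genes. The median genotype difference of the members ranged from -0.025 to 0.007 when each pool was left out. Some genotype differences turned sign, and none was called. *Adamts1* (-0.03) was at 0.064 in ABH, 0.035 with array weights and 2.8e-05 without AZN_MolairesMutant3 and ABH_14A, an alternative chosen after seeing the data. *Mmp14* (-0.019) was at 0.006 in AZN, 0.01 with array weights and 0.033 without those pools. *Timp2* (-0.022) was at 0.019 in ABH, 0.006 with array weights and 0.057 without them. *Adamtsl3* was at -0.086 in AZN. Leaving out 1 pool gave -0.065 to 0.003 for *Adamts1*, -0.086 to 0.037 for *Mmp14*, -0.046 to 0.007 for *Mmp2* and -0.06 to 0.012 for *Timp2*. The series difference of *Adamts3* was -0.089 as a mean of its probe sets. *Mmp11* also fell under the fold minimum with array weights (0.248) and with arrays centred on their median (0.257), where *Adamts5* passed it (-0.293 and -0.267). *Adamts5* was called lower in AZN under 13 settings, among them 8 of the 16 that left out 1 pool (-0.307 to -0.191 over all 16) and that without the unnumbered AZN pools (-0.328). *Mmp13* was called between series only without ABH_25A (0.345), and *Adamtsl3* only without ABH_13A (-0.312) or AZN_MolairesWT2 (-0.317). Without the 2 farthest pools, r turned to 0.86 for *Mmp14* with osteoblast markers in AZN, -0.24 for *Timp3* with cartilage in ABH and -0.03 for *Adamts1* with endothelium in ABH. The cause of these changes was not tested. Signals near 5 lie close to background and limit what can be read of *Mmp3*, *Mmp10*, *Mmp21*, *Mmp27* and *Timp4*.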
